A study of Mus musculus with 28 samples.

Results

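The regions described here are stretches of distal chromatin where H3K27ac, acetylation of lysine 27 of histone H3, was called in round spermatids and in no other germ cell library of the study. Peaks of the 12 H3K27ac libraries that overlapped by at least 1 bp were merged into 129187 regions. A region was kept where both round spermatid (RS) libraries had a peak and the other 10 libraries had none. The members were thus chosen by peak calls of these same libraries, and those calls are given as a description. All RS peaks of a region had to be annotated by the authors as intron, upstream or intergenic, and no input library could have a peak there. The rule kept 6349 regions, 4.91% of all merged regions, and they are called RS-only distal regions below. Of 35308 regions called in both RS libraries, 7593 were called in no other library, 6369 of these were distal, and overlap with an input peak removed 20.

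The study profiled germ cells of C57BL/6 mouse testis by ChIPmentation, a chromatin immunoprecipitation in which a transposase adds the sequencing adapters. Every group held 2 libraries. The spermatogonia, sorted as Thy1+ or as c-Kit+ cells, came from wild type and Scml2-KO pups on postnatal day 7. Adult Scml2-KO mice gave the PS libraries, from spermatocytes at the pachytene stage, and the RS libraries. The 16 input libraries covered all 4 cell types in both genotypes. Spermatocytes and spermatids of both H3K27ac groups therefore lacked Scml2, a germline Polycomb-associated gene, and the effect of its loss on these regions cannot be told apart from the stage; wild type H3K27ac libraries of these stages were not analysed here. Age and stage likewise cannot be told apart between spermatogonia and the later cells. Cells came from STA-PUT sedimentation or magnetic sorting, per the labels, and nothing states whether replicates came from separate mice. Spread between replicates may thus be technical.

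H3K27ac is laid down by the acetyltransferases p300 and CBP on the nucleosomes that flank active promoters and enhancers. At a distance from promoters it is a common mark of active enhancers, which are often particular to a cell type. Round spermatids are haploid cells that have finished meiosis. They build the acrosome and the flagellum and store messenger RNA before histones are replaced by transition proteins and protamines. In pachytene spermatocytes the X and Y chromosomes are silenced in the sex body, and part of that silencing lasts into round spermatids.

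Sequences are shown for starts of annotated transcripts that lie on RS-only distal regions, and for RS-only promoters that carry the PU.1 motif, because these are the places where a reference sequence could be set beside the acetylation. Of the 6349 regions, 134 (2.11%) overlapped a RefSeq start window of the GRCm38.p6 build, which runs from 250 bases before to 50 bases after a transcription start. Their 162 windows belonged to 136 genes, of which 120 were long noncoding RNA genes and 16 were protein-coding. The share with a window was 1.54% among PS-only distal regions and 11.1% among distal regions called in both PS and both RS libraries. The 2 windows on members are those of the long noncoding RNA Gm40645 (chr10:51526214-51526513, minus strand, 300 bases) and of an internal start of Sox5, a SOX transcription factor gene of the germ line (chr6:143947107-143947356, minus strand, the 250 bases before the start). Capitals mark the AP-1 motif TGANTCA in Gm40645 and the SOX motif ACAATGG in Sox5.
Gm40645: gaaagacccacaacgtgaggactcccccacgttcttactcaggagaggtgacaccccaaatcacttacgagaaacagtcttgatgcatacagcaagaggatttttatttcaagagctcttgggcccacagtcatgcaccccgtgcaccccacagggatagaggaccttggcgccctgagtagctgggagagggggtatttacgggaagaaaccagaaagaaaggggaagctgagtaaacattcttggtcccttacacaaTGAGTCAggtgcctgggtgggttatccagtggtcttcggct
Sox5: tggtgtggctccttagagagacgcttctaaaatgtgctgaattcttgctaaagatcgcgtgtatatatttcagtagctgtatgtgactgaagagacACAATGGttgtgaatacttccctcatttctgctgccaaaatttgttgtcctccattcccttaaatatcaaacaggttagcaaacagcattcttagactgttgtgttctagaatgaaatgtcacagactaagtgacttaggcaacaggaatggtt

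The region on Gm40645 (chr10:51525543-51529198, intergenic, listed by the authors at Fam162b) had a fold enrichment of 9.00 in RS replicate 1 and 9.20 in replicate 2, and it ranked 38 among the members. The region at Sox5 (chr6:143946550-143947276, intron) had 5.87 and 5.95. In both places the replicates lay close together. Fold enrichment is the authors' value for a peak, the read height at its summit over the library's own background, and a peak's height counts overlapping fragments. In all, 14 motifs were searched on both strands, and none was tested. ACAATGG stood in 15 of the 162 windows on members (9.26%) and in 3.66% of all 32851 windows. Median GC content was 47.3% in the windows on members and 52.7% in all windows, so base composition moved with the motif and its part was not tested. The GC box GGGCGG went the other way, with 10.5% of the windows on members and 35.7% of all. TGANTCA stood in 8.64% of the windows on members and 7.81% of all. The full cAMP response element TGACGTCA, a site of the spermatid activator CREM, was found in 2 of the 162 windows (1.23%), against 1.79% of all windows.

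The members were modest peaks. Their median fold enrichment was 4.69 in RS replicate 1 and 4.33 in replicate 2, with medians of 11 and 7 overlapping fragments at the summit. Their median length was 449 bp. Distal regions shared by PS and RS had RS medians of 7.04 and 6.49 and a median length of 1403 bp, and PS-only distal regions had PS medians of 4.19 and 4.80. The rule chose members by the presence and absence of calls, so these heights describe the set and test nothing. Of the members, 99.5% had replicate values within 2-fold of each other. The rank correlation of the replicates over the 6349 regions was 0.383 (Spearman, a description over regions of 1 library pair).

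**Figure D1:**
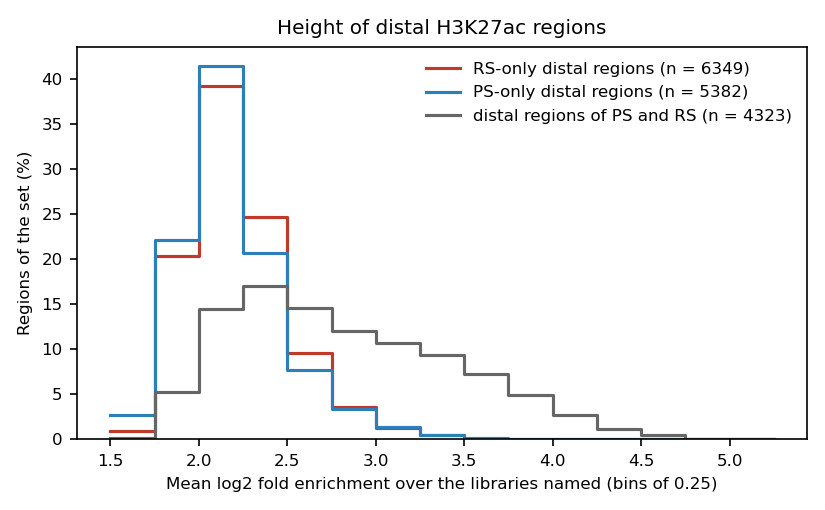
Distribution of mean log2 fold enrichment (bins of 0.25, RS libraries for RS-only and shared regions, PS libraries for PS-only regions) as a percentage of each set of distal regions. Most of the 6349 RS-only regions lie in the low bins, as the 5382 PS-only regions do, while more of the 4323 shared regions lie in the high bins.

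A region without a call may still carry signal. The weakest peak called was at 3.05 in PS replicate 1 and 3.20 in PS replicate 2. Only 287 members (4.52%) had both RS values at least 2 times the higher of these. The weakest members sat at the limit of calling: regions listed at Cdc42bpa and Srp9 had 3.13 and 3.25 in the 2 RS libraries. Just outside the rule, 4018 distal regions failed by 1 other library, and in 3219 of them this was PS replicate 1. The strongest of these, listed at Gm5460, had 14.9 and 14.1 in RS and 8.01 in PS replicate 1. Without PS replicate 1 the rule would keep 9794 regions. A further 22690 distal regions were called in 1 RS library alone.

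Members were often close to acetylated chromatin of other libraries. Of them, 2617 (41.2%) lay within 1000 bp of a region called in another library, and 63.7% lay within 5 kb. When peaks up to 1 kb apart were joined, 3361 regions remained. By the authors' classes, 3450 members (54.3%) were intronic, 1772 (27.9%) intergenic and 1127 (17.8%) upstream. The median distance from the nearest listed transcription start was 21679 bp, and 1782 members lay over 50 kb away (28.1%, 95% exact binomial interval 26.96 to 29.19%). Among all 97505 distal regions that share was 26.7%, so position relative to starts differed little.

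The X chromosome held few RS-only distal regions and the Y chromosome held none. On the X there were 51 members, 0.803% of the set (95% exact binomial interval 0.599 to 1.05%), whereas 202 PS-only distal regions, 3.75% of that set (3.26 to 4.30%), were on the X. As a share of all distal regions on the same chromosome, members made up 3.43% on the X and 5.98 to 7.76% on the autosomes. PS-only regions made up 13.6% on the X and 4.61 to 6.30% on the autosomes. The intervals cover counting error only, and a call in spermatocytes removes a region from the members. The strongest X members were an intergenic region near Stard8, a GTPase activating protein gene (chrX:99016560-99018869, 7.82 and 8.11), and an intronic region of Msn, which encodes the membrane linker moesin (chrX:96130235-96130967, 5.87 and 7.03). Of 20 genes listed as active on the X and Y after meiosis, 1 had a member and 5 had a PS-only distal region. Among all listed genes, 21.8% had a member and 18.4% a PS-only distal region. The member was an intergenic region listed at Cypt14, 117296 bp from its listed start, at 5.08 and 4.33. With the same number of strongest peaks kept in each library, the X share fell to 0.0690%, and with peaks joined over 1 kb it was 1.37%.

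**Figure D2:**
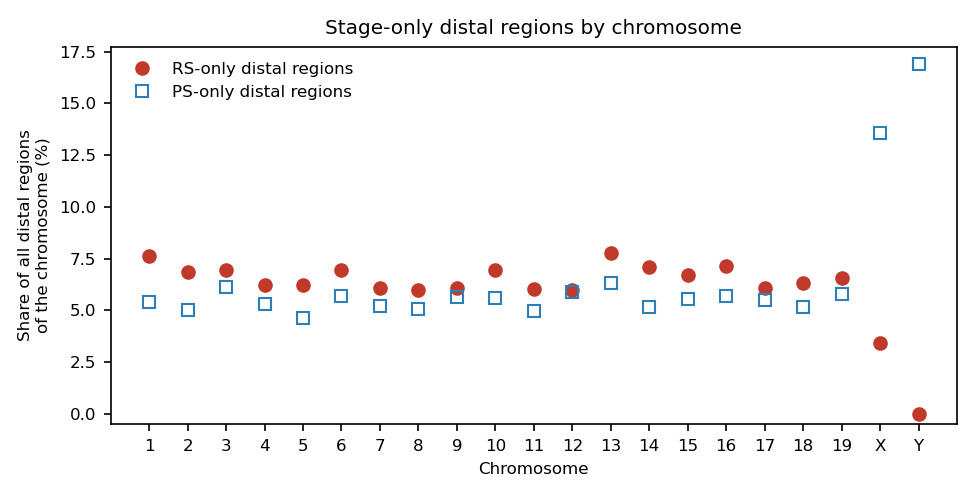
Share of all distal H3K27ac regions of each chromosome (x axis) that were RS-only (filled circles) or PS-only (open squares), in percent. On the X chromosome the RS-only share is 3.43% and the PS-only share 13.6%; the Y chromosome has no RS-only region.

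The cell type label was checked against marker genes, by the highest peak within 1000 bp of a gene's own listed start. All 6 round spermatid markers measured were called in both RS libraries, with a summed fold enrichment of 96.8 to 112. They were also called in both PS libraries, at 43.7 to 90.4, and at most 1 was called in a spermatogonial library. Tnp1, which encodes transition protein 1, was at 17.6 and 15.7 in RS and 11.1 and 6.40 in PS. The 5 pachytene markers were likewise called in both stages, at 85.5 to 103 in RS and 114 to 125 in PS. Of 6 spermatogonium markers, 4 to 5 were called in an RS library, summing to 20.0 to 32.5. In a PS library 3 to 5 were called (26.1 to 41.9), and in a spermatogonial library 0 to 5 (0 to 32.9). The label thus agreed in part with its markers: spermatid genes were acetylated in RS, but their promoters were already called in PS. Spermatogonium markers did not set RS apart from spermatogonia.

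Markers of macrophages were called in the RS libraries too. All 4 macrophage markers on the list, Adgre1, Csf1r, Cd68 and Ptprc, had a promoter peak in both RS libraries, summing to 31.4 to 39.5, against 4.80 to 9.15 in PS and at most 10.6 in spermatogonia. Cd68 gave 15.3 and 14.6 of the RS sums, and 6.10 and 4.80 of the PS sums. Its RS peak lay in a merged region that also held the promoter of Mpdu1. That region was at 20.2 and 18.7 in PS, so its highest peak was not higher in RS. Adgre1 (F4/80, listed as Emr1) was at 6.26 and 5.41 in RS and had no peak in the other 10 libraries. On a wider list of 24 genes of macrophages and other myeloid cells, 22 to 23 had a peak in an RS library, 6 to 10 in a PS library and 1 to 8 in a spermatogonial library. Of all genes, 72.5 to 75.9% had a promoter peak in an RS library. The share was 74.0 to 76.6% in a PS library and 55.7 to 68.3% in a spermatogonial library. This list was drawn up after the strongest members had been seen, so it is not independent evidence. Summed fold enrichment of the list was 187 to 225 in RS, 60.8 to 78.6 in PS and 5.58 to 56.7 in spermatogonia. Sertoli markers went the other way: 5 of 5 were called in PS, summing to 45.4 to 59.2, and 3 of 5 in RS, summing to 13.5 to 16.8, with Sox9 and Cldn11 without a peak there. Leydig markers were called at 3 of 5 in PS and 1 of 5 in RS, and endothelial markers at 2 of 3 in both. Of 2 peritubular markers, 0 were called in RS and at most 1 in PS. In bulk chromatin, more cells with a mark and a higher level per cell cannot be told apart. The part of myeloid chromatin in the results below was not tested.

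**Figure D3:**
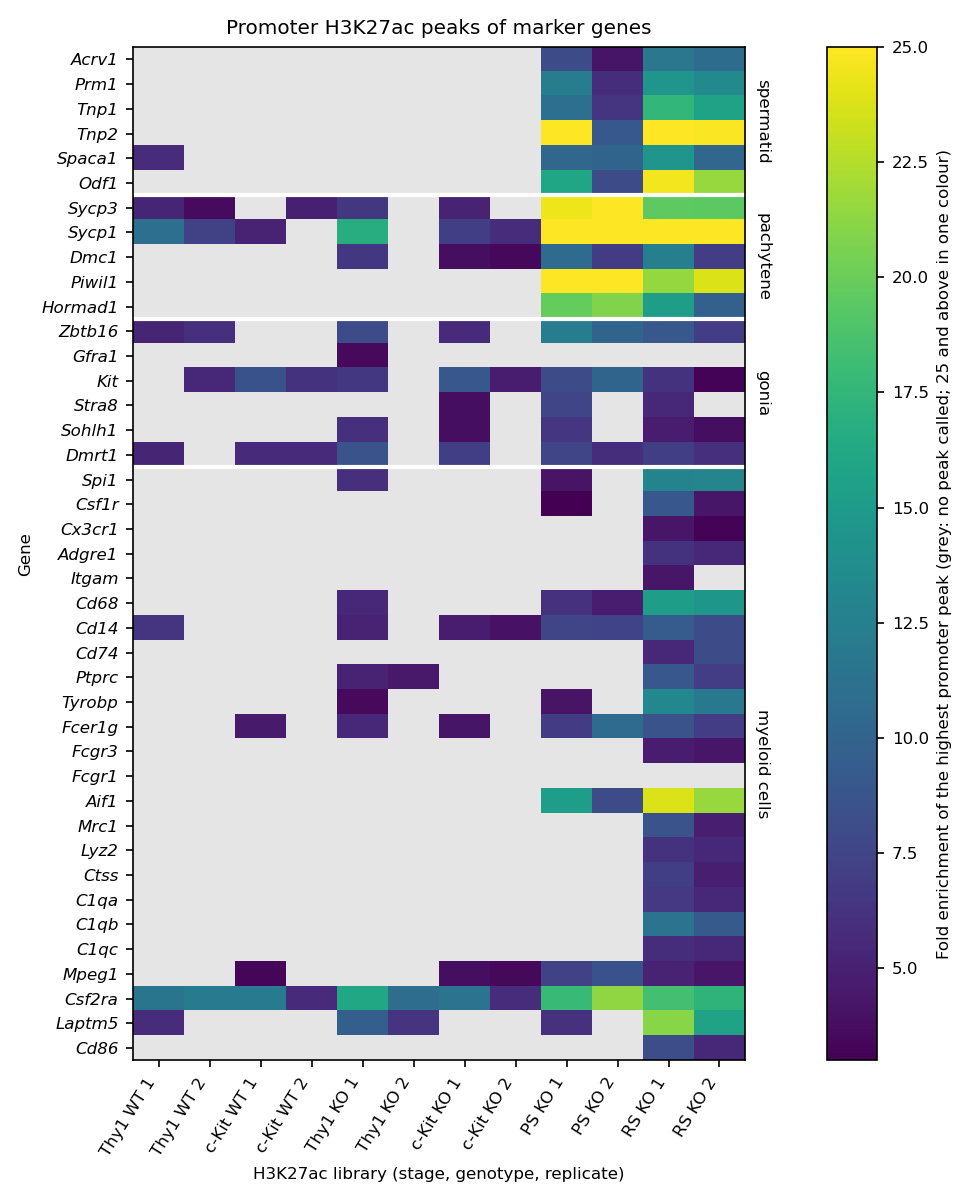
Fold enrichment of the highest promoter peak (colour, grey where none was called, one colour from 25 up) of marker genes (rows) in the 12 H3K27ac libraries (columns, 2 replicates per group). Spermatid and pachytene markers are called in PS and RS alike, and 11 of the 24 myeloid genes are called in the 2 RS libraries alone.

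Promoter peaks are sites that the rule did not use, in the libraries that it did. Of 17839 genes with a start of their own, 217 (1.22%) had a promoter peak in both RS libraries and in none of the other 10, and 164 (0.919%) had one in both PS libraries alone. On the myeloid list these were 11 of 24: Cx3cr1, Adgre1, Cd74, Fcgr3, Mrc1, Lyz2, Ctss, C1qa, C1qb, C1qc and Cd86. C1qb, a chain of complement component C1q, was at 11.3 and 9.20, and Cd86, a costimulatory ligand of antigen-presenting cells, at 8.21 and 5.41. The strongest of all 217 were at Il4i1 (18.4 and 6.49), an amino acid oxidase gene of antigen-presenting cells, and Cd53 (11.0 and 10.3), a leukocyte tetraspanin gene. Replicates of Il4i1 lay far apart and those of Cd53 close together. On the sperm tail list 2 of 56 promoters were RS-only, those of Dnah2, a dynein gene, and Qrich2, a flagellar gene. Of 20 X and Y genes active after meiosis 3 were RS-only: Tex13a was at 5.48 and 4.87, Cypt2 at 4.69 and 4.87, and Zfy2, a Y-linked zinc finger gene, at 5.87 and 3.79. No promoter was RS-only on the lists of acrosome, chromatoid body, nuclear compaction, ion channel and germ cell transcription factor genes. Those lists do not hold every gene of their kind. Zp3r (8.61 and 4.33) and Zan (6.26 and 4.87) are on none of them and had RS-only promoters. Among the 217 genes, 61 (28.1%) also had an RS-only distal region, against 22.8% of the other genes.

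The motif of PU.1, the ETS factor of myeloid and B cells, was searched as GAGGAAGT on both strands; it was chosen after the strongest members were seen. It stood in 15 of 187 windows of RS-only promoters (8.02%) and in 3.20% of all windows, and in 2.47% of the windows on members. Median GC content was 48.3% in the RS-only promoter windows. The 250 bases before the start are shown for Il4i1 (chr7:44836038-44836287, plus strand) and Aim2 (chr1:173420354-173420603, plus strand), a sensor of cytosolic DNA whose RS-only promoter peak was at 6.65 and 5.41. Capitals mark the motif on either strand.
Il4i1: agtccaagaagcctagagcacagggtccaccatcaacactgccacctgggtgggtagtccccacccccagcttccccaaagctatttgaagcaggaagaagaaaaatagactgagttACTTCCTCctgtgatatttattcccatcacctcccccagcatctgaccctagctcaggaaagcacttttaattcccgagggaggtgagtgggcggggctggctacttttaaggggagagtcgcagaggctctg
Aim2: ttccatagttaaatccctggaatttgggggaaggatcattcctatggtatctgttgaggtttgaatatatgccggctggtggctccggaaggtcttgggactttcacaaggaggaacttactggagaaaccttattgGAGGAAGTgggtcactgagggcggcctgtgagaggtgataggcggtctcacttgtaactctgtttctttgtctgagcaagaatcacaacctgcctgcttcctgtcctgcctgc

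The 12 strongest distal members are given by what their listed genes are known for. The highest mean log2 value was that of an intergenic region 26739 bp before the start of Apbb1ip, an adaptor gene for integrin activation in leukocytes (chr2:22747069-22748248). It was at 14.1 in replicate 1 and 9.74 in replicate 2, a mean of 11.9 ± 3.07 (SD, n = 2). An intronic region of Nfam1, an activating receptor gene of immune cells (chr15:83009120-83009856), followed at 11.7 and 11.4. The third was upstream of Ifnar2, a subunit of the type I interferon receptor (chr16:91354193-91356065), at 11.7 and 10.8. Replicates of Nfam1 and Ifnar2 differed little, and those of Apbb1ip more.

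Transcription factor genes came next. An intergenic region before Klf6, a zinc finger factor gene (chr13:5778224-5780414), was at 10.2 and 12.4. A region upstream of Atf3, a stress-induced factor gene (chr1:191200442-191202401), was at 12.1 and 9.74. The Klf6 region was the only one of these with the higher value in replicate 2 by more than 2 units. A 2666 bp intronic region of Cd83, a surface protein gene of dendritic cells (chr13:43788273-43790938), had 10.2 and 10.8. The receptor phosphatase gene Ptprj had an intronic region at 11.7 and 9.20 (chr2:90573506-90575919). Smad3, a transducer of TGF-beta signals, had one at 9.78 and 10.8 (chr9:63737540-63738472). The other 4 of the 12 strongest were listed at Osbpl3, Tpd52, Skp2 and Chp2, with 10.2 to 12.1 in replicate 1 and 8.66 to 10.8 in replicate 2.

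Members also lay in runs, with neighbours at most 50 kb apart. The 6349 regions fell into 3993 runs, 2629 members stood alone, and 2036 (32.1%) were in runs of at least 3. The longest run held 13 members over 78.5 kb at Tgfbr2, the type II TGF-beta receptor gene (chr9:116101277-116179769). Its members were at 3.52 to 9.00 in replicate 1 and 3.25 to 7.03 in replicate 2. The promoter of Tgfbr2 itself was called in all 12 libraries, for instance at 19.9 and 15.1 in RS, 7.63 and 7.46 in PS, and 16.2 and 9.05 in wild type Thy1+ cells. Other libraries had intronic peaks there too, outside the members: wild type Thy1+ replicate 1 had 2, at 3.67 and 4.72, and Scml2-KO Thy1+ replicate 1 had 1, at 5.06. That the members themselves were called in RS alone was set by the rule.

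**Figure D4:**
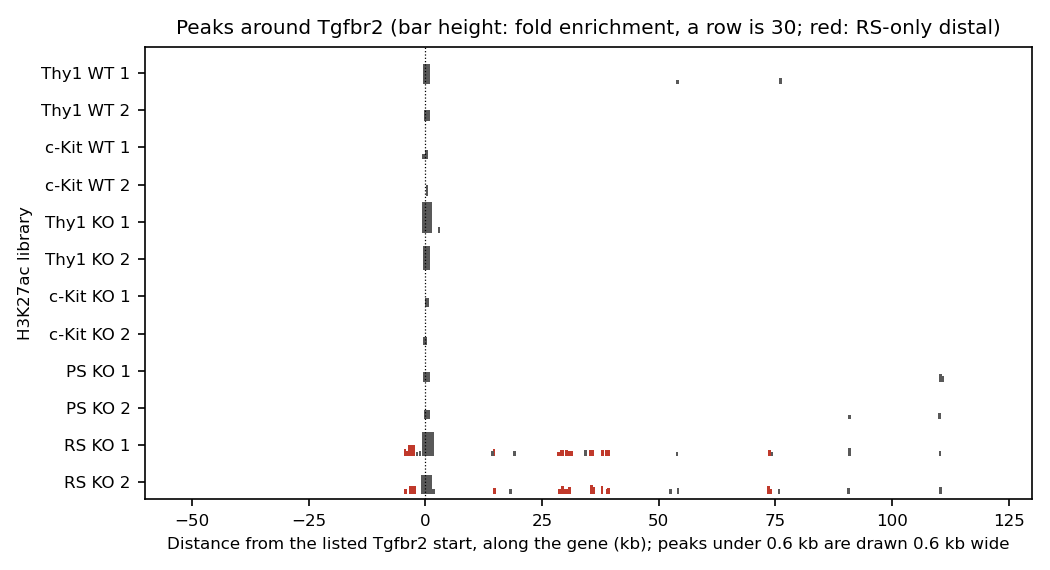
Peaks around Tgfbr2 in the 12 H3K27ac libraries (rows), by distance from its listed start along the gene in kb; bar height is fold enrichment and red marks peaks of RS-only distal regions. All libraries have a promoter peak, and the 13 RS-only regions lie from just before the start to the 3' part of the gene.

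The next longest runs held 9 to 11 members. Mtss1, which encodes an actin and membrane binding protein, had 11 members over 101 kb (chr15:58978589-59079823). Etv6, an ETS factor gene of blood formation, had 11 over 109 kb (chr6:134064689-134174086), the strongest at 9.00 and 8.66. A run of 11 over 182 kb spanned Irf2, an interferon regulatory factor gene, and Enpp6 (chr8:46764810-46947147). A run of 10 lay at Map3k14, a kinase gene of the noncanonical NF-kB pathway (chr11:103245054-103308315). Of several runs with 9 members, the one at Ubac2 and Gpr183 (chr14:121928542-122011065) held the strongest single region, at 12.9 and 8.11; Gpr183 encodes a migration receptor of immune cells. By listed gene, Atp2b1, a plasma membrane calcium pump gene, had 12 members.

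Genes with a member were counted against gene lists. Of 19162 listed genes, 4169 (21.8%) were listed at 1 or more RS-only distal regions, and 18.4% at PS-only distal regions. Listed genes are the authors' assignment by position, not measured targets. Longer genes can hold more regions: the median transcript span was 37.3 kb for genes with a member and 19.6 kb for all genes. Of the genes with a member, 2722 had 1, 858 had 2 and 589 had at least 3. The lists were chosen with earlier results known, and no list was tested.

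On the myeloid list 13 of 24 genes (54.2%) had a member, with a median span of 8.52 kb. A PS-only region was listed at 8.33% of the 24, and a distal region shared by PS and RS at 20.8%. An intronic region of Cd74, the invariant chain of MHC class II (chr18:60805904-60807473), was at 8.61 and 8.11. A region 20100 bp upstream of Adgre1 (listed as Emr1, chr17:57337602-57339171) was at 8.61 and 7.03, and an intronic region of Cd86 (chr16:36662773-36664403) at 7.43 and 7.57. Ptprc, which encodes CD45, had 4 members and the myeloid master regulator Spi1 (PU.1, listed as Sfpi1) had 2. The list's regions numbered 27, with a median of the mean log2 value of 2.31, against 2.17 for all members. Among genes at the 500 strongest members, 2.54% of all listed genes, 3 of the 24 appeared (12.5%). Since the list was drawn up after the strongest members had been seen, its shares and heights are a description and not independent evidence. Of 7 lymphocyte genes listed, 1 had a member, Cd4 (14.3%, against 21.8% of all listed genes). The lymphocyte list too was drawn up after the strongest members had been seen.

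Lists of spermatid genes also held members, at lower heights. Sperm tail genes had a member in 24 of 56 cases (42.9%), against 17.9% with a PS-only region. A distal region shared by PS and RS was listed at 37.5% of them, against 17.1% of all listed genes. The list's median span was 38.1 kb. An intronic region of 1700040L02Rik (chr10:68480045-68480960) was at 9.00 and 5.41. An intronic region of Dnah8, a dynein heavy chain gene of the flagellum (chr17:30869919-30870524), was at 5.48 and 6.49. Odf2, a component of the outer dense fibres, had 3 members, all at or below 4.33. The median of the mean log2 value over the 42 regions was 2.08. Genes of the chromatoid body, the RNA granule of spermatids, had a member in 10 of 21 cases (47.6%), with a median span of 38.8 kb. Of these genes, 23.8% had a PS-only region and 28.6% a distal region shared by PS and RS. The strongest member was a region listed at Tdrd9, a piRNA pathway helicase gene, and 5033406O09Rik, at 5.08 and 7.03 (chr12:111958451-111958999). Mael, another piRNA pathway gene, had an intronic region at 5.08 and 5.95 (chr1:166234652-166235025).

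Germ cell transcription factor genes had a member in 10 of 26 cases (38.5%), a PS-only region in 30.8% and a shared one in 30.8%. Besides Sox5, the genes with a member included Hsf5, with an intronic region at 6.26 and 5.41 (chr11:87619111-87619666), Rfx1, Rfx4, Sox30 and Ovol1. Shares nearer to the 21.8% of all genes were found for ion channel and signalling genes (28.6%), acrosome genes (25.9%), for nuclear compaction genes (4 of 16) and testis glycolytic enzymes (4 of 16). H1fnt, a spermatid linker histone gene, had an upstream region at 4.30 and 5.41. Somatic testis markers (21.2%), spermatogonial genes (18.5%) and meiotic genes (12.1%) did not exceed that share. Of the 33 somatic markers, 39.4% had a PS-only region, and 3 of the 7 with a member, Emr1, Mrc1 and Ptprc, are also on the myeloid list.

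**Figure D5:**
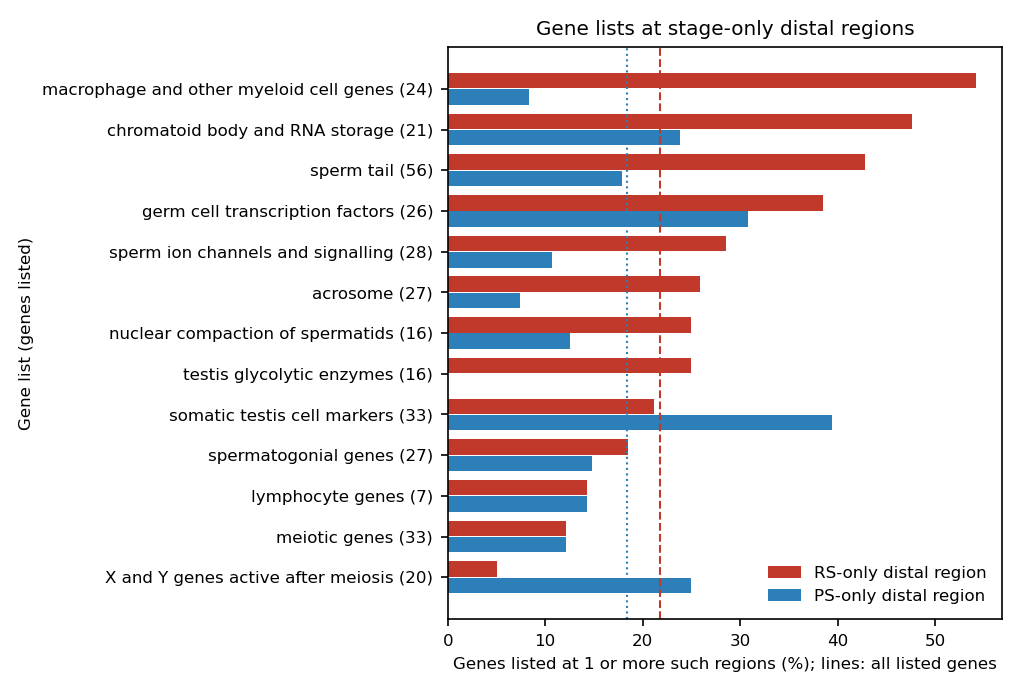
Share of the listed genes of each list (rows, number of genes in brackets) that had 1 or more RS-only (red) or PS-only (blue) distal regions, in percent, with the shares over all genes as lines (21.8% and 18.4%). The myeloid list, drawn up like the lymphocyte list after the strongest members were seen, leads at 54.2%. The chromatoid body and sperm tail lists follow at 47.6% and 42.9%.

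The members were also described by rank of height, with no test of a difference between ranks. The 100 strongest named 102 genes, and 5 of the 102 (4.90%) had an RS-only promoter. The share was 3.32% for ranks 101 to 500, 1.81% for ranks 501 to 2000 and 1.37% beyond. These further groups named 399, 1359 and 3284 genes. Of the genes named, 0, 2, 12 and 35 were on the spermatid lists in this order, and 1, 2, 8 and 9 on the myeloid list. These are counts in groups of unlike size, so their rise alone does not show how either list stood against rank. The myeloid list holds 24 of the 19162 listed genes and was drawn up after the strongest members were seen. Within 5 kb of a region of another library lay 57.0% of the strongest 100 and 67.1% of those beyond rank 2000.

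Finally, promoters of genes with a member were compared between RS and PS, both Scml2-KO. The same libraries chose the members, at other positions, so the counts below are a description and not independent evidence. Fold enrichment on the log2 scale was centred per library and fitted with limma over all 21329 regions called in all 4 libraries. Among 11462 promoter regions, 4.76% were higher and 5.36% lower in RS at a Benjamini-Hochberg adjusted p below 0.05. Of 3023 promoter regions of genes with a member, 193 were higher (6.38%) and 133 lower (4.40%). The median log2 difference was -0.09 for these and -0.14 for all promoter regions, after centring of each library. The balance of directions turned with the filter: with regions called in at least 2 of the 4 libraries, and missing values set to the library's lowest, 133 of 3664 were higher and 198 lower, against 328 higher and 988 lower of all 14334 promoter regions. With a -log10 q of at least 5, 182 of 2672 were higher and 37 lower, against 516 higher and 183 lower of all 10016. For genes with 3 or more members, 33 of 471 were higher (7.01%) and 22 lower (4.67%). Without PS replicate 2 no promoter region passed in this fit (540 of the members' genes at an unadjusted p below 0.05), and without RS replicate 1 or 2 the members' genes had 183 and 181 calls in place of 326.

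The largest rise among promoters of genes with a member was at Arap1, a GTPase activating protein gene, at 12.5 and 10.8 in RS and 3.43 and 3.20 in PS, near the lowest values called there. Its log2 difference was 2.01 (SE 0.19, limma adjusted p = 0.00788). Sirpa, the myeloid receptor for CD47, was at 15.6 and 14.1 in RS and 6.48 and 4.80 in PS, a log2 difference of 1.60 (SE 0.22, limma adjusted p = 0.00788). Fam110a, 5430435G22Rik and Adig rose by 1.62, 1.59 and 1.57 on the log2 scale. These promoters were picked for their rise, so the gap between their RS and PS values is no separate evidence.

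The largest fall was at Fam134b, an autophagy receptor gene of the endoplasmic reticulum with 7 members. Its promoter was at 4.30 and 3.79 in RS and 14.1 and 14.4 in PS, a log2 difference of -1.63 (SE 0.19, limma adjusted p = 0.00788). Mrap, an accessory protein gene of melanocortin receptors with 3 members, fell by 1.54. On the same scale Gm19522 fell by 1.39, Abr fell by 1.36 and Plekhg1 fell by 1.22. Distal RS-only calls and a lower promoter thus stood at the same gene in these cases.

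By gene list, counts in this fit were small, and no difference between lists was tested. They stand beside the 4.76% higher and 5.36% lower of all promoter regions. Of 52 sperm tail promoters 6 were higher in RS and 0 lower. Odf1, an outer dense fibre gene with 1 member, was at 24.6 and 21.6 in RS and 16.02 and 8.00 in PS. Tekt5, a tektin gene with 1 member, was at 13.3 and 11.4 in RS and 9.91 and 5.33 in PS. Of 25 ion channel and signalling promoters 6 were higher and 0 lower (6 and 2 with a replicate block), and of 23 acrosome promoters 5 were higher and 2 lower. Of 6 myeloid promoters 1 was higher, that of Aif1, a calcium-binding protein gene of macrophages, at 23.9 and 21.6 in RS and 15.3 and 8.00 in PS. The others did not pass in either direction. Their log2 differences were 0.40 at Cd14, 0.06 at Csf2ra, 0.06 at Fcer1g, -0.19 at Mpdu1 and Cd68, and -0.55 at Mpeg1. Spermatogonial promoters had 0 higher and 4 lower of 16. Somatic markers had 0 higher and 5 lower of 10, and with a -log10 q of at least 5 limma called 0 of 5 (3 at an unadjusted p below 0.05).

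This fit holds only promoters called in all 4 libraries, which leaves out every RS-only promoter. With regions called in at least 2 of the 4 libraries, and missing values at the library's lowest, 14 of 27 myeloid promoter regions were higher and 1 lower. An RS-only promoter enters that fit through its RS calls alone, with PS at its lowest value, so its direction was largely set in advance. On the myeloid list 11 of 24 genes had such a promoter. Sperm tail promoters then had 1 higher and 1 lower of 64, ion channel and signalling promoters 1 higher and 0 lower of 26, and acrosome promoters 4 higher and 2 lower of 29. Somatic markers, which share genes with the myeloid list, had 3 higher and 12 lower of 35. The counts for the myeloid and sperm tail lists thus went in opposite ways with the filter, and the myeloid count is not independent evidence of a rise.

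Counted by calls, the promoters of genes with a member were acetylated in most libraries. They were called in 79.3% and 76.9% of cases in RS (75.9% and 72.5% of all genes) and in 78.1% and 75.7% in PS (76.6% and 74.0% of all genes). In wild type Thy1+ spermatogonia they were called in 63.6% and 60.4% of cases (60.0% and 56.7% of all genes), and in wild type c-Kit+ cells in 64.7% and 58.3% (62.3% and 55.7%). In Scml2-KO Thy1+ cells the shares were 70.3% and 62.2% (68.3% and 59.0% of all genes), and in Scml2-KO c-Kit+ cells 66.5% and 59.4% (63.8% and 56.5%). In each of the 12 libraries the share for genes with a member lay above that of all genes, by a few percentage points.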

How the data were processed

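H3K27ac ChIPmentation peak tables of 12 libraries and 16 input tables were used as the authors deposited them, 1 table per library. Per the submitters' processing notes the tools were Bowtie and MACS2 and the build mm10; versions are not given in the sources used here. In the deposited tables each summit line has a pileup signal (fragments over the summit), a fold ratio over background, and -log10 p-value and q-value. In every library the fold equals pileup plus 1 over a constant, so no input correction is visible in it. Read depth is unknown; the files list 63322 to 73316 peaks per RS library, 64056 to 69042 per PS library, 17877 to 36362 per spermatogonial library and 359 to 1192 per input.

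Mitochondrial lines (1005) were left out, peaks were merged (overlap of at least 1 bp), and the rule was applied. Coordinates are those of the files. Intervals are exact binomial (95%) and cover counting error only. Promoter values are the highest peak within 1000 bp of a start listed under a single gene name. RS and PS promoters were compared with limma 3.58.1 in R 4.3.3 on median-centred log2 fold, without a replicate block, and Benjamini-Hochberg adjustment over all regions tested; the fit was tested on simulated data. Other steps used Python 3.11.15 (pandas 2.3.3, scipy 1.17.1). Start windows and symbols came from RefSeq tables of GRCm38.p6, the same build as mm10.

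The members and gene lists were chosen with earlier results of these data known. Named regions are the 12 with the highest mean log2 fold, up to 4 per gene list, the longest runs, the strongest on X, the genes with most members, and the 5 largest promoter rises and falls past an adjusted p of 0.05. Alternatives were another overlap, a -log10 q of at least 5, equal numbers of peaks, joined peaks, kept input overlaps, a distance rule and left-out libraries. Motif counts over the regions themselves were not run, since no genome was used here. Groups and numbers of replicates were taken from the labels.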

Additional observations from a re-analysis of the deposited data

How the results depend on the processing

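The number of RS-only distal regions rested on the peak threshold. With a -log10 q of at least 5 it was 2608, with each library cut to an equal count of its strongest peaks 1449, and with peaks up to 1000 bp apart joined 3361. In the same order, the X share was 0.383%, 0.0690% and 1.37%, and the share over 50 kb from a start 31.9%, 34.9% and 34.5% (32.3% with all summits over 5000 bp from a start). The median RS fold was 6.57 and 8.56 under the first pair of settings. Over the 3 settings, myeloid genes with a member numbered 8, 6 and 10, and sperm tail genes 10, 6 and 13. The number of regions fell as well, so these counts alone do not show how either list stood against all genes. Leaving out a replicate number gave 24906 to 25138 regions, a setting that drops 1 RS library and 5 others at once; leaving out single libraries, chosen after seeing the data, gave 6352 to 23545, with 17235 without RS replicate 1 and 9794 without PS replicate 1. Over all these the median fold ran from 3.91 to 4.98, the share over 50 kb from 23.8 to 30.1%, and sperm tail genes with a member from 24 to 41.

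The promoter calls of genes with a member were 0 to 255 with 1 library left out (0 to 187 higher), against 326 (193 higher and 133 lower). With regions called in at least 2 of 4 libraries it was 331, with 133 higher and 198 lower, so the balance turned; the cause was not tested. With a -log10 q of at least 5 it was 219, with 182 higher and 37 lower. The replicate block gave 330 calls (204 higher). Same-numbered samples did not deviate together (correlation 0.0412), but with 2 libraries per stage this cannot tell whether the numbers pair them. Signal below the calling limit, 5 to 7 fragments in PS and RS, is not in the tables, so an absent peak is not an absent mark.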

Other observations

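Mature microRNAs lay on 4 RS-only distal regions. A region listed at Wdfy2 (chr14:62864642-62865638, 6.26 and 9.20 in the RS libraries) covers Mir6541, and a region listed at Cmss1 (chr16:57609849-57611074, 6.65 and 7.03) covers Gm51269, the gene of miR-1970b. The other regions reached into Mir6993 at Fads1 (4.69 and 7.03) and Mir6911 at Dazap1 (4.30 and 3.79). The mature sequences from RefSeq are shown for the first pair, with the seed (bases 2 to 8) in capitals; the seeds differ.
mmu-miR-6541: cACAGGCAaggacuucucaag
mmu-miR-1970b-5p: uAUGUCACugggcauuggcuuuga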
